A study of Mus musculus with 6 samples.

Results

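The resident perivascular macrophage genes described here are Cd163, Mrc1, Lyve1, Mertk, Timd4, Vsig4, Clec10a, Folr2, Retnla and Cbr2, 10 of the 35122 genes counted, and they were chosen by name as genes known from macrophages that live along the vessels of fat and other tissues. They were measured by RNA-sequencing of the adipocyte fraction, the top layer after collagenase digestion of epididymal fat. It came from male C57BL/6 mice on chow, aged 10 to 11 months by the sample labels and more than 1 year by the paper's text. The paper states that cells such as macrophages might be left in this fraction, likely as foam cells or attached to adipocytes. The control group (PU.1 fl/fl) carried loxP sites around a single exon of Spi1, the gene of the ETS transcription factor PU.1, with no Cre, and the aPU.1KO group (AdipoqCre PU.1 fl/fl) carried the same floxed alleles and a Cre transgene driven by the adiponectin promoter, which is active in fat cells. Each group had 3 mice with 1 library each, numbered 1 to 3 here within a group, and a shared number does not pair mice of the 2 groups. The paper describes the control mice as littermates, and which mice shared a litter is not given in the labels.

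Resident macrophages of fat sit on blood vessels, take up debris and dying cells, and carry a set of scavenger and clearance receptors that sets them apart from the macrophages that gather around dying adipocytes in obesity. CD163 takes up haemoglobin bound to haptoglobin, MRC1 (the mannose receptor, CD206) binds mannosylated glycoproteins, and LYVE1 binds hyaluronan and is also a well-known protein of lymphatic endothelium. MERTK and TIMD4 bind phosphatidylserine on dying cells, MERTK through the bridging proteins GAS6 and PROS1. VSIG4 binds fragments of complement C3, CLEC10A is a galactose-type lectin, FOLR2 is the beta folate receptor, RETNLA is a secreted protein of the resistin family that interleukin-4 induces, and CBR2 is a carbonyl reductase that is also known from adipocytes.

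Total counts were 22770714 to 69283842 in the control and 20550252 to 24310144 in the aPU.1KO libraries. Control library 1 was the deep one, so low counts were better measured there than elsewhere. Spi1 itself had 24.3, 6.35 and 26.7 CPM (counts relative to the library size, which was adjusted by the TMM method) in control mice 1, 2 and 3 and 3.20, 1.22 and 4.17 in aPU.1KO mice 1, 2 and 3. Its log2 fold change of aPU.1KO over control was -2.75 (standard error 0.64, adjusted p = 0.0788 by edgeR), a value counted over the whole gene, including exons outside the floxed one. With the mean of the general macrophage genes as a covariate it was -0.36 (standard error 0.50, edgeR adjusted p = 0.955). The covariate ran from 3.68 to 5.61 in control mice and from 2.72 to 3.21 in aPU.1KO mice, so it separated the groups itself. This fit called 0 of the 13925 genes, and it cannot tell the loss of Spi1 from a difference in macrophage RNA. Control library 2 stood apart from the other control libraries in macrophage RNA. The summed level of 17 general macrophage genes was 432 CPM there against 1678 and 1656 CPM in control mice 1 and 3, and it was 215 to 319 CPM in the aPU.1KO mice.

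Mrc1 fell by 1.70 on the log2 scale in aPU.1KO mice, a 3.24-fold lower level, and it was the only one to pass an adjusted p of 0.05 with edgeR's quasi-likelihood test. Clec10a and Folr2 had values of 2.52-fold and 3.11-fold lower, without overlap between the groups but above that threshold. Of all 13925 genes tested edgeR called 0.180% as lower at that threshold, and 15.5% were lower without overlap. Cbr2 was 1.34-fold lower. Cd163, Mertk, Lyve1 and Retnla overlapped between the groups and had log2 fold changes of 0.29, 0.056, -0.25 and -0.43. Timd4 and Vsig4 had too few counts to be tested. In the same libraries all 17 general macrophage genes had negative log2 fold changes, with a median of -2.26. Over all genes tested, 13.7% were lower and 11.9% higher at an unadjusted edgeR p under 0.05. DESeq2 called 8.73% lower and 4.69% higher at an adjusted p under 0.05. These shares apply beside the counts of each list of genes below.

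**Figure D1:**
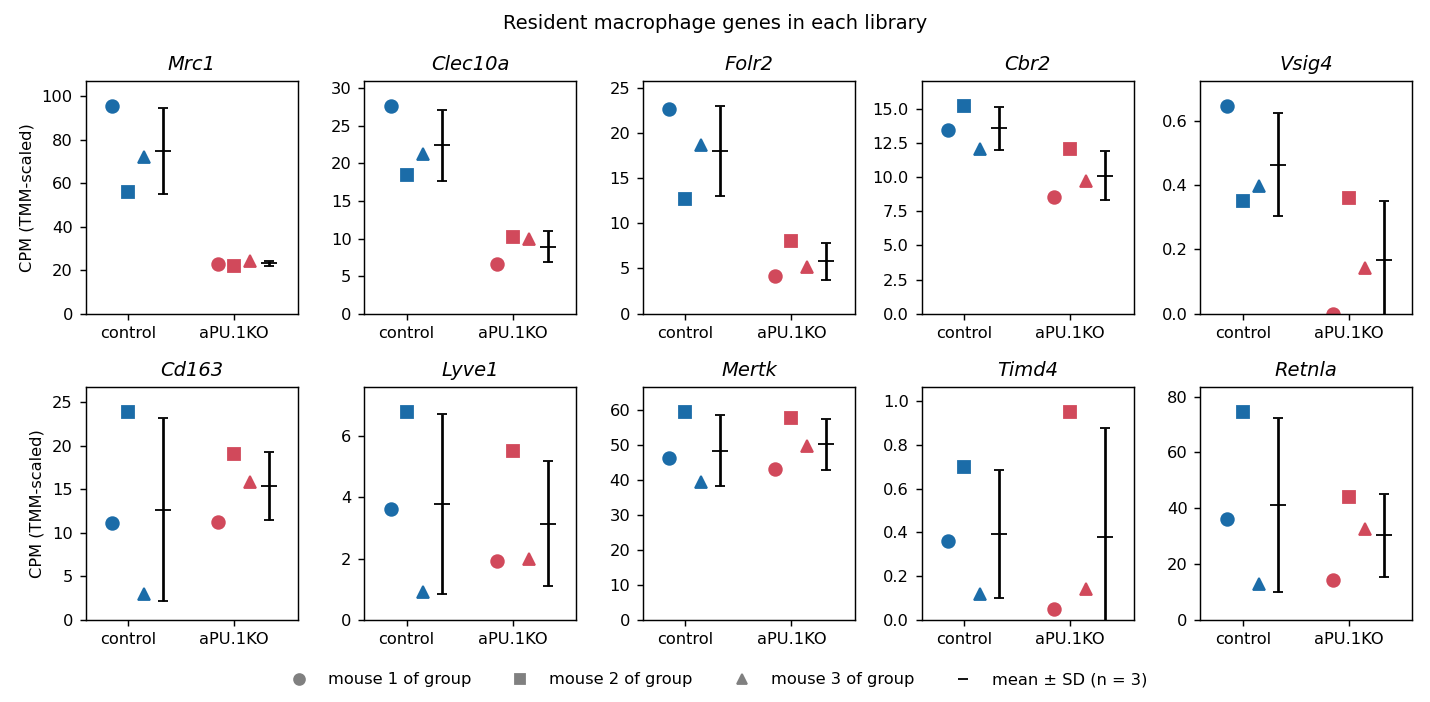
Level of each of the 10 genes in CPM (TMM-scaled, vertical axis from 0) in the 3 control (blue) and 3 aPU.1KO (red) libraries, with mice 1, 2 and 3 of a group as circle, square and triangle and the mean and SD of each group in black (bars that would pass below 0 are cut at the axis). Mrc1, Clec10a, Folr2 and Cbr2 are lower without overlap between the groups, a pattern found in 15.5% of all genes tested. In Cd163, Lyve1, Timd4 and Retnla control mouse 2 is the highest and control mouse 3 the lowest of the control mice.

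PU.1 binds purine-rich DNA around a GGAA core, so the promoter windows of the members (250 bases before to 50 after the RefSeq transcript start, GRCm38.p6) were read for the letters GAGGAAG and GGAAGT on both strands, which can overlap each other. RefSeq windows were found for 8 of the 10 genes, 9 windows in all. Of these 8 genes 6 held at least 1 match, GAGGAAG in 3 and GGAAGT in 5. Over all 27025 genes with a window, 15.4% held GAGGAAG, 26.5% held GGAAGT and 35.1% held either. The stretches below show those matches that lie before the annotated transcript start. They are written on the strand of the gene, 5′ to 3′, with the matches in capitals (CTTCCTC and ACTTCC are the same motifs on the opposite strand), and are shown because the genes differ in whether they hold one.
Mrc1, chr2:14229178-14229391 (+): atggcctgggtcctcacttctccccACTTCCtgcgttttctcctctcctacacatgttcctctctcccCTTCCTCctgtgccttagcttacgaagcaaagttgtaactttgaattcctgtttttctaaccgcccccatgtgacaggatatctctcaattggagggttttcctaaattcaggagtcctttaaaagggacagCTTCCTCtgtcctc
Folr2, chr7:101857241-101857351 (-): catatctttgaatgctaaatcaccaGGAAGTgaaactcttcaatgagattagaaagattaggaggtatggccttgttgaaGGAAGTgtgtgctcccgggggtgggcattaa
Retnla, chr16:48842386-48842443 (+): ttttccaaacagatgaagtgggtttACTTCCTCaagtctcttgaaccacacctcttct
Timd4, chr11:46810702-46810757 (+): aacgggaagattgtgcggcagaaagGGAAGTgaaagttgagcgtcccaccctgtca
Vsig4, chrX:96293471-96293526 (-): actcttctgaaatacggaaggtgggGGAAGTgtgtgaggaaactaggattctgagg
Mrc1 held 3 matches in its window, Folr2 held 2 in the window shown, Vsig4 held 2 (the other lies 10 bases after the RefSeq start) and Retnla held 2 that overlap. The sixth gene, Cbr2, had its GAGGAAG at chr11:120732094-120732100, 79 bases before the RefSeq start but inside the GENCODE gene model, and the windows of Cd163 and Mertk held neither motif. Lyve1 and Clec10a were not among the windows used here. A match is a run of letters and not a measured binding site.

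Mrc1 (ENSMUSG00000026712, chromosome 2, 14229392 to 14332057, GRCm38) was counted at 95.5, 56.1 and 72.3 CPM in control mice 1, 2 and 3 and at 23.0, 22.1 and 24.2 CPM in aPU.1KO mice 1, 2 and 3. The lowest control mouse lay above the highest aPU.1KO mouse, and the aPU.1KO mice lay closer together (23.1 ± 1.05 CPM, SD, n = 3) than the control mice (74.6 ± 19.8 CPM). The log2 fold change was -1.70 (standard error 0.19, adjusted p = 0.0389 by edgeR's quasi-likelihood test). The same call of a lower level was made for 0.180% of the 13925 genes tested, and of a higher level for 0.0575% of genes and 0 of the members. DESeq2 gave Mrc1 an adjusted p of 4.12e-13. The edgeR call was lost, with log2 fold changes between -1.73 and -1.49, when control mouse 1 (adjusted p = 0.0939), control mouse 3 (0.181) or aPU.1KO mouse 1, 2 or 3 (0.184, 0.0816 and 0.0781) was left out, and with a filter of at least 10 counts in every library (0.0747). With the mean of the general macrophage genes as a covariate the log2 fold change was -1.08 and the edgeR adjusted p 0.772, in a fit that called 0 of the 13925 genes and gave the other 7 tested members 1 shared adjusted p of 0.945.

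Cd163 (ENSMUSG00000008845, chromosome 6, 124304656 to 124330527) had 11.1, 23.9 and 2.97 CPM in control mice 1, 2 and 3 and 11.3, 19.0 and 15.8 CPM in aPU.1KO mice 1, 2 and 3. The control mice differed 8.02-fold among themselves and enclosed all 3 aPU.1KO mice. It differed by 0.29 on the log2 scale (standard error 0.63, edgeR adjusted p = 0.804), and it was -0.18 without control mouse 3, 1.08 without control mouse 2 and -1.23 (standard error 0.76) with the macrophage covariate. Haptoglobin, whose complex with haemoglobin CD163 takes up, is made by adipocytes, and its gene Hp was at 2924 to 6258 CPM in control mice and 2606 to 3011 CPM with the knockout (log2 fold change -0.70, standard error 0.27, edgeR adjusted p = 0.171).

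Lyve1 (ENSMUSG00000030787, chromosome 7, 110850607 to 110863239) had a low level, 3.64, 6.79 and 0.912 CPM in control mice 1, 2 and 3 and 1.93, 5.52 and 1.99 CPM in aPU.1KO mice 1, 2 and 3. The highest and the lowest of the 6 libraries were both control libraries. The difference was -0.25 on the log2 scale (standard error 0.72, edgeR adjusted p = 0.848), and it was 0.41 without control mouse 2 and -0.94 when aPU.1KO mouse 2 was dropped. With the macrophage covariate it was -1.91 (standard error 0.96). LYVE1 is also known from lymphatic endothelium, and a list of 8 genes for that cell type was read beside it. Of these Prox1, Mmrn1, Reln and Ccl21a were not tested, with at most 21 counts in any library. Prox1, the factor that defines lymphatic endothelium, had 8, 2 and 1 counts in the control and 0, 0 and 5 counts in the aPU.1KO libraries. Of the 4 tested genes Fgl2 is also known from macrophages, Itga2b from platelets, Pdpn from stromal cells and Flt4 from blood vessels. Of these 4 edgeR called 0 at an adjusted p under 0.05, while Flt4, Pdpn and Fgl2 had lower values with an unadjusted p under 0.05, and DESeq2 called those 3. The summed level of the list, 26.5 to 29.9 CPM in control mice and 12.4 to 17.1 CPM with the knockout, came mostly from these 4 genes. The part of lymphatic endothelium in the Lyve1 values was not tested.

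Of the receptors for dying cells, Mertk (ENSMUSG00000014361, chromosome 2, 128698956 to 128802894) had 46.3, 59.5 and 39.5 CPM in control mice 1, 2 and 3 and 43.3, 57.8 and 49.7 CPM in aPU.1KO mice 1, 2 and 3, so that each group spanned nearly the same range. Its log2 fold change was 0.056 (standard error 0.17, edgeR adjusted p = 0.862). The value was below 0 without control mouse 3 (-0.076), without aPU.1KO mouse 2 (-0.059), with libraries scaled by total counts alone (-0.063) and with the macrophage covariate (-0.45, standard error 0.20). Timd4 (ENSMUSG00000055546, chromosome 11, 46810800 to 46844332) had 26, 16 and 3 counts in control libraries 1, 2 and 3 and 1, 21 and 3 counts in aPU.1KO libraries 1, 2 and 3. The counts of the groups overlap, and the aPU.1KO mice differed 18.7-fold in CPM among themselves. A difference was not resolved at these counts and this spread (log2 fold change -0.019, standard error 0.96, with no filter).

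The partners of MERTK and TIMD4 in the clearance of dying cells were read from a list of 22 genes, of which 19 were tested and 16 were lower. None passed an adjusted p of 0.05 by edgeR, whereas 9 were lower and 1 was higher at an unadjusted p under 0.05, and DESeq2 called 7 lower and 1 higher at an adjusted p under 0.05. Over all genes tested, edgeR gave an unadjusted p under 0.05 to 13.7% as lower and to 11.9% as higher, and 8.73% were lower and 4.69% higher by DESeq2. Stab1, a scavenger receptor that binds phosphatidylserine, had 104, 62.4 and 89.8 CPM in control mice 1, 2 and 3 and 24.7, 36.8 and 34.0 CPM in aPU.1KO mice 1, 2 and 3 (log2 fold change -1.42, standard error 0.22, edgeR adjusted p = 0.0718). Axl, the receptor kinase closest to MERTK in function, ranged from 44.8 to 95.0 CPM in control mice and from 20.1 to 32.4 CPM in aPU.1KO mice, with a difference of -1.50 on the log2 scale (standard error 0.30, edgeR adjusted p = 0.0764). Havcr2, the gene of the phosphatidylserine receptor TIM-3, was at 0.919 to 2.14 CPM in control mice and 0.190 to 0.497 CPM with the knockout. The groups did not overlap in these genes, which were named for the lowest p-values of the list. Of the 19 tested partners 9 were lower and 1 was higher without overlap. Over all genes tested these patterns were found in 15.5% and 16.7%. In the remaining tested partners the groups overlapped, as in Mertk. The bridging ligands were less far apart, Gas6 at 85.7 to 93.2 against 67.1 to 84.3 CPM and Pros1 at 79.9 to 93.0 against 57.3 to 85.0 CPM, with log2 fold changes of -0.24 and -0.26.

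Vsig4 (ENSMUSG00000044206, chromosome X, 96247203 to 96293438) had 47, 8 and 10 counts in control libraries 1, 2 and 3 and 0, 8 and 3 counts in aPU.1KO libraries 1, 2 and 3. Scaled to depth these were 0.647, 0.350 and 0.397 CPM against 0, 0.362 and 0.142 CPM, so that aPU.1KO mouse 2 lay just above the lowest control mouse. With no filter its log2 fold change was -1.48 (standard error 0.815, edgeR adjusted p = 0.353). The complement list read beside it (its ligand C3, the alternative pathway and the C3 receptors, 9 genes, all tested) had 7 lower and 2 higher. edgeR called 0 at an adjusted p under 0.05, with 6 lower and 1 higher gene at an unadjusted p under 0.05, and DESeq2 called 5 lower and 1 higher. C3 itself was at 725 to 1812 CPM in control mice and 415 to 706 CPM with the knockout.

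Clec10a (ENSMUSG00000000318, chromosome 11, 70156197 to 70170834) had 27.7, 18.4 and 21.3 CPM in control mice 1, 2 and 3 and 6.56, 10.3 and 9.90 CPM in aPU.1KO mice 1, 2 and 3. Each aPU.1KO mouse lay below each control mouse. The difference on the log2 scale was -1.34 (standard error 0.22, edgeR adjusted p = 0.0722). The adjusted p was 7.82e-06 by DESeq2, 0.0455 by edgeR with no filter and 0.0169 without control mouse 2. It was highest among the mice left out when control mouse 1 was dropped (0.313, with a log2 fold change of -1.17), and the macrophage covariate gave a log2 fold change of -0.99 (standard error 0.38). Its transcripts share 851 bp at 92.8% identity with Mgl2, the neighbouring lectin gene, so that the estimated counts may divide reads between the 2 genes. Mgl2 followed another pattern, with 7.99, 14.3 and 2.82 CPM in control mice 1, 2 and 3 and 4.27, 9.99 and 5.73 CPM in aPU.1KO mice 1, 2 and 3. The log2 fold change of Mgl2 was -0.32 (standard error 0.57), and control mouse 2 was its highest library, where Clec10a had the lowest level of the control mice.

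Folr2 (ENSMUSG00000032725, chromosome 7, 101839988 to 101857194) had 22.6, 12.7 and 18.6 CPM in control mice 1, 2 and 3 and 4.17, 8.05 and 5.12 CPM in aPU.1KO mice 1, 2 and 3. The groups did not overlap. Its log2 fold change was -1.64 (standard error 0.31, edgeR adjusted p = 0.0729). DESeq2 gave an adjusted p of 2.79e-05, edgeR gave 0.0498 with no filter and 0.0164 without control mouse 2. Dropping control mouse 1 gave 0.313 by edgeR with a log2 fold change of -1.45, and the macrophage covariate gave -1.09 (standard error 0.51). Exons of the antisense gene Gm10602 overlap it over 975 bp, and whether the counting used strand is not given in the sources used here. Folr1, which encodes the alpha folate receptor, was at 0.317 CPM or less in every library, and of the 8 tested genes of a folate handling list 5 were lower and 3 higher, with a median log2 fold change of -0.043. edgeR called 0 of these 8 at an adjusted p under 0.05, with 0 lower and 2 higher genes at an unadjusted p under 0.05, and DESeq2 called 0.

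Retnla (ENSMUSG00000061100, chromosome 16, 48842551 to 48844461) had 36.0, 74.5 and 12.9 CPM in control mice 1, 2 and 3 and 14.3, 43.9 and 32.7 CPM in aPU.1KO mice 1, 2 and 3. The control mice differed 5.80-fold, and both the highest and the lowest library were control libraries. Its log2 fold change was -0.43 (standard error 0.64, edgeR adjusted p = 0.701), and it was 0.29 without control mouse 2 and -0.86 without control mouse 3. The macrophage covariate gave -1.999 (standard error 0.78). Retn, the adipocyte member of the resistin family, was higher in every aPU.1KO mouse, at 1222 to 2852 CPM against 535 to 1160 CPM (log2 fold change 1.22, standard error 0.40, edgeR adjusted p = 0.123), and Retnlb and Retnlg had 0 counts in every library.

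RETNLA, MRC1 and CLEC10A belong to the program that interleukin-4 induces in macrophages. Of 18 further genes of this program 16 were tested, 13 lower and 3 higher. edgeR called 0 at an adjusted p under 0.05, with 8 lower and 0 higher genes at an unadjusted p under 0.05, and DESeq2 called 5 lower. Il13ra1, a receptor chain for interleukin-4 and interleukin-13, was at 4.25 to 6.32 CPM in control mice and 1.47 to 2.80 CPM with the knockout (log2 fold change -1.30, standard error 0.30, edgeR adjusted p = 0.0786). Il1rn, the gene of the interleukin-1 receptor antagonist, had a log2 fold change of -2.70 and Trem2, a lipid receptor of macrophages, of -3.24, both without overlap of the groups.

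Cbr2 (ENSMUSG00000025150, chromosome 11, 120729489 to 120732114) had 13.5, 15.2 and 12.1 CPM in control mice 1, 2 and 3 and 8.54, 12.1 and 9.71 CPM in aPU.1KO mice 1, 2 and 3. The highest aPU.1KO mouse, at 12.07 CPM, lay just under the lowest control mouse, at 12.10 CPM. The log2 fold change was -0.43 (standard error 0.17, edgeR adjusted p = 0.170), and DESeq2 gave an adjusted p of 0.115. With the macrophage covariate the value was -0.76 (standard error 0.26). The similar sequence of Gm11771 (92.1% identity over 342 bp) had 0 counts in every library.

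Per length of merged exons, the levels in control mice ran from Retnla at 68.6 CPM per kb down to Timd4 at 0.181 CPM per kb. Mrc1, Folr2, Mertk and Cbr2 followed Retnla at 11.7, 11.6, 11.2 and 10.2 CPM per kb, with ranges over the control mice that overlapped (8.81 to 15.0, 8.21 to 14.6, 9.11 to 13.7 and 9.12 to 11.5), so that their order was not resolved. Clec10a was at 7.74, Cd163 at 2.32, Lyve1 at 1.29 and Vsig4 at 0.313 CPM per kb. Between neighbours in this order the control ranges were apart only for Retnla and Mrc1 and for Clec10a and Cd163. In aPU.1KO mice Retnla was again first, at 50.6 CPM per kb, and Mertk and Cbr2 were the next, at 11.6 and 7.62 CPM per kb. Mrc1, next to Retnla in control mice, was at rank 5 in aPU.1KO mice with 3.62 CPM per kb. Folr2 at 3.74 and Clec10a at 3.07 CPM per kb were beside it, with Cd163 at 2.82 CPM per kb, and the ranges of these 4 genes overlapped, whereas those of Mertk (9.99 to 13.3) and Cbr2 (6.43 to 9.09) did not.

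Of the 8 tested genes 4 (Mrc1, Clec10a, Folr2 and Cbr2) had all aPU.1KO levels below all control levels, a pattern found in 15.5% of all genes tested, and these 4 also had an unadjusted edgeR p under 0.05, as did 13.7% of all genes in the lower direction. DESeq2 called 3 of them, Mrc1, Clec10a and Folr2, and 8.73% of all genes as lower. The median log2 fold change over the 8 was -0.43, against 0.014 over all genes tested and -2.26 over the general macrophage genes. In bulk RNA fewer macrophages and less RNA of a gene in each macrophage cannot be told apart.

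**Figure D2:**
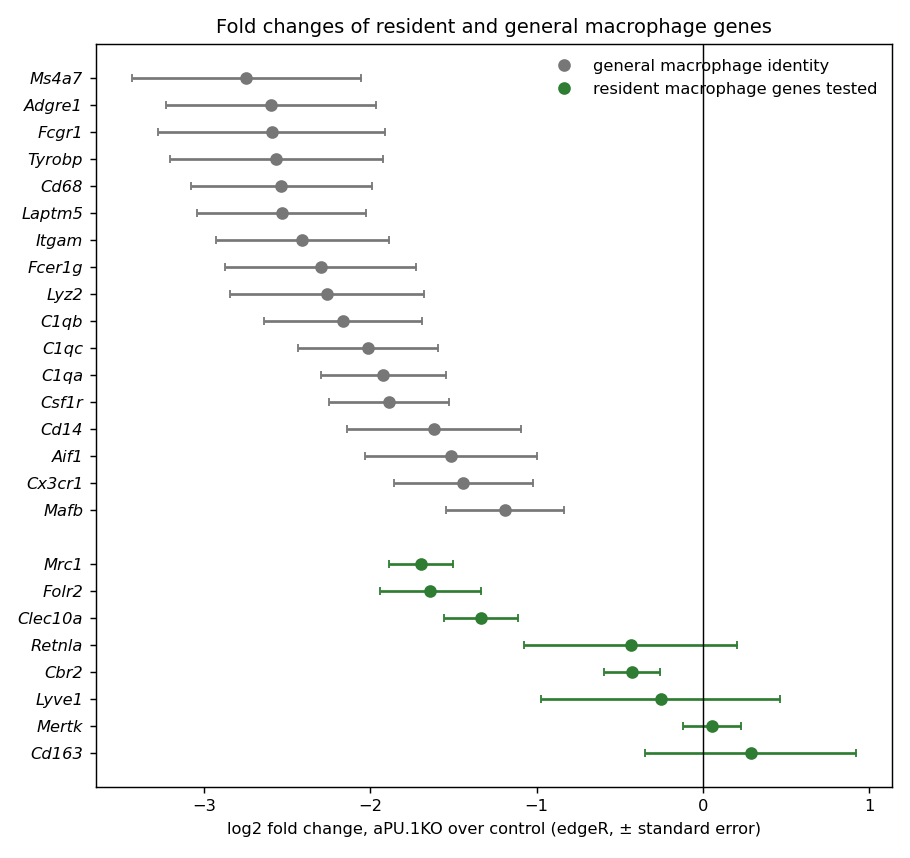
Log2 fold change of aPU.1KO over control (horizontal axis, edgeR, bars are standard errors) for the 17 general macrophage genes (grey) and the 8 tested resident genes (green). All grey points lie below 0, while the green ones run from -1.70 for Mrc1 to 0.29 for Cd163.

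The general macrophage list was lower throughout, with 17 of 17 genes lower and 15 without overlap between the groups. None passed an adjusted p of 0.05 by edgeR (lowest 0.0749, for Csf1r), all 17 had an unadjusted p under 0.05, and DESeq2 called all 17. Csf1r, the receptor for the macrophage growth factor, ranged over 53.6 to 140 CPM in control mice and 23.4 to 34.7 CPM in the aPU.1KO group. Adgre1, which encodes F4/80, was at 129, 26.2 and 115 CPM in control mice 1, 2 and 3 and at 21.4, 7.96 and 15.7 CPM in aPU.1KO mice 1, 2 and 3. The part of this difference in the values of the resident genes was not tested. Adipocyte genes had much higher levels, Adipoq averaging 2660 CPM in control mice and 3582 CPM with the knockout.

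To set each gene against the macrophage RNA of its own library, the mean log2 CPM of the 17 general macrophage genes was subtracted from its log2 CPM (prior count 2). That mean was 5.61, 3.68 and 5.53 in control mice 1, 2 and 3 and 3.21, 2.72 and 3.14 in aPU.1KO mice 1, 2 and 3. On this relative scale all 10 genes had a higher mean in aPU.1KO mice, by a median of 1.49, as did 97.7% of all genes tested, whose median difference was 1.93. Dropping control mouse 2 moved the median over the 10 to 2.40, dropping control mouse 3 to 0.68 and dropping aPU.1KO mouse 2 to 0.80. Among the 10 only Mertk had no overlap, with 2.23 to 3.14 in aPU.1KO and -0.22 to 2.21 in control mice, a difference of 1.99 with an exact two-sided permutation p of 0.1, the smallest that 3 against 3 can give, and 76.7% of all genes tested were likewise higher without overlap and 0.496% lower. Mrc1 and Folr2 differed least on the relative scale, by 0.26 and 0.28 (exact permutation p = 0.6 for each), and Clec10a by 0.59 (exact permutation p = 0.4). Cd163 differed most, by 2.61, but its control mice ran from -3.92 to 0.90 (exact permutation p = 0.3). For Lyve1, Retnla, Cbr2, Timd4 and Vsig4 the differences were 1.88, 1.67, 1.49, 1.49 and 0.40, with exact permutation p-values between 0.3 and 0.8. Over 10 such tests none could pass a correction.

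**Figure D3:**
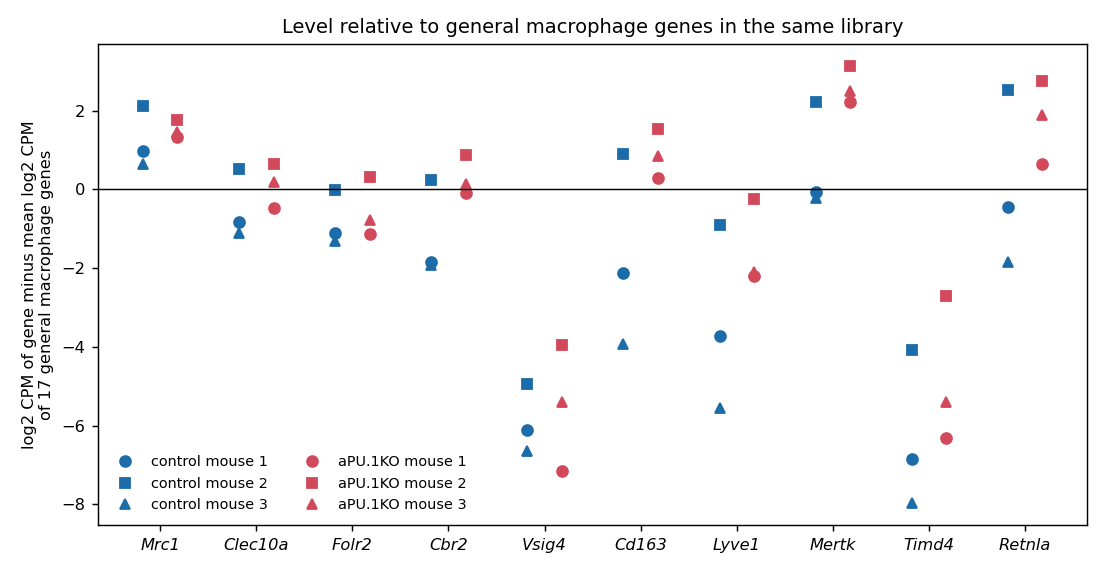
Log2 CPM of each gene minus the mean log2 CPM of 17 general macrophage genes in the same library (vertical axis), for control (blue) and aPU.1KO (red) mice, with mice 1, 2 and 3 of a group as circle, square and triangle. Mertk separates the groups, and in the other 9 genes they overlap.

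The spread within the control group followed 2 patterns. In Mrc1, Clec10a, Folr2 and Vsig4 control mouse 1 was the highest and control mouse 2 the lowest, and all 17 general macrophage genes also had their lowest control level in mouse 2. In Cd163, Lyve1, Mertk, Timd4, Retnla and Cbr2 control mouse 2 was the highest and control mouse 3 the lowest of the control mice. Over all genes tested, 42.3% were highest and 43.7% lowest in control mouse 2 among the control mice. Cd163 was at 23.9 CPM in control mouse 2 and 2.97 CPM in control mouse 3, whereas Gpnmb, a gene of lipid-laden macrophages, was at 43.2 CPM in control mouse 2 and 461 CPM in control mouse 3.

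Lipid-associated macrophage genes, the program of macrophages around dying fat cells, served as the nearest other macrophage set. Of 14 such genes, all tested, 12 were lower and 2 higher, with a median log2 fold change of -1.68. Some were at levels like those of adipocyte genes. Lpl averaged 16670 CPM in control mice (log2 fold change 0.33) and Ctsd 2200 CPM (-0.31). The part of adipocyte RNA in this list was not tested. By edgeR 0 passed an adjusted p of 0.05, 10 genes were lower and 0 higher with an unadjusted p under 0.05, and DESeq2 called 8 lower. In 13 of the 14 genes control mouse 2 was the lowest of the control mice. In aPU.1KO mouse 2, where Gpnmb was at 4.11 CPM and Trem2 at 1.58 CPM, the lowest of the 6 libraries, Timd4 had its highest level, Cd163, Lyve1, Mertk and Retnla had their second highest, and Folr2, Clec10a, Cbr2 and Vsig4 were the highest of the aPU.1KO mice. Mrc1 went the other way, with its lowest level of the 6 libraries in that mouse (22.1 CPM). Genes of other cell types also had their highest sum of the aPU.1KO group in mouse 2. Sums in aPU.1KO mice 1, 2 and 3 were 365, 774 and 474 CPM for blood endothelial genes. They were 6.76, 9.09 and 6.96 CPM for mesothelial and 20.8, 24.4 and 18.7 CPM for hepatocyte genes. Mural cell genes had their lowest sum there (412, 404 and 533 CPM). The difference between the resident and the lipid-associated genes was not tested.

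A list of 25 companion genes of resident macrophages, all tested, held both patterns. It had 21 lower and 4 higher genes and a median log2 fold change of -0.44. Cd36 in this list was at a level like that of adipocyte genes, averaging 5331 CPM in control mice (log2 fold change 0.10). The part of adipocyte RNA in the list was not tested. edgeR called 0 at an adjusted p under 0.05, with 11 lower and 1 higher gene at an unadjusted p under 0.05, and DESeq2 called 8 lower and 1 higher. Like Mrc1, the scavenger receptor gene Stab1 and the endocytic adaptor gene Dab2 were lower in every aPU.1KO mouse, Dab2 at 20.4 to 24.6 against 39.2 to 59.5 CPM (log2 fold change -1.07, standard error 0.17, edgeR adjusted p = 0.0718). The chemokine gene Ccl8 was at 1.27 to 3.03 against 4.82 to 6.43 CPM (log2 fold change -1.52, standard error 0.34, edgeR adjusted p = 0.0786). Like Cd163, the lectin gene Cd209f had 6.34, 13.3 and 1.35 CPM in control mice 1, 2 and 3 and 3.51, 8.86 and 4.07 CPM in aPU.1KO mice 1, 2 and 3. Cd209d, Cd209g, F13a1 (coagulation factor XIII A chain) and Fcna (ficolin A) were likewise highest in control mouse 2 and lowest in control mouse 3 among the control mice, with log2 fold changes between -0.81 and -0.21 and groups that overlapped. These 5 were picked for that pattern after their values were seen. Over the whole list control mouse 2 was the highest control mouse in 11 of 25 genes (44.0%) and the lowest in 13 (52.0%), against 42.3% and 43.7% of all genes tested. Maf, a transcription factor of resident macrophages, was at 72.4 to 76.5 CPM in control mice and 51.8 to 74.9 CPM with the knockout.

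**Figure D4:**
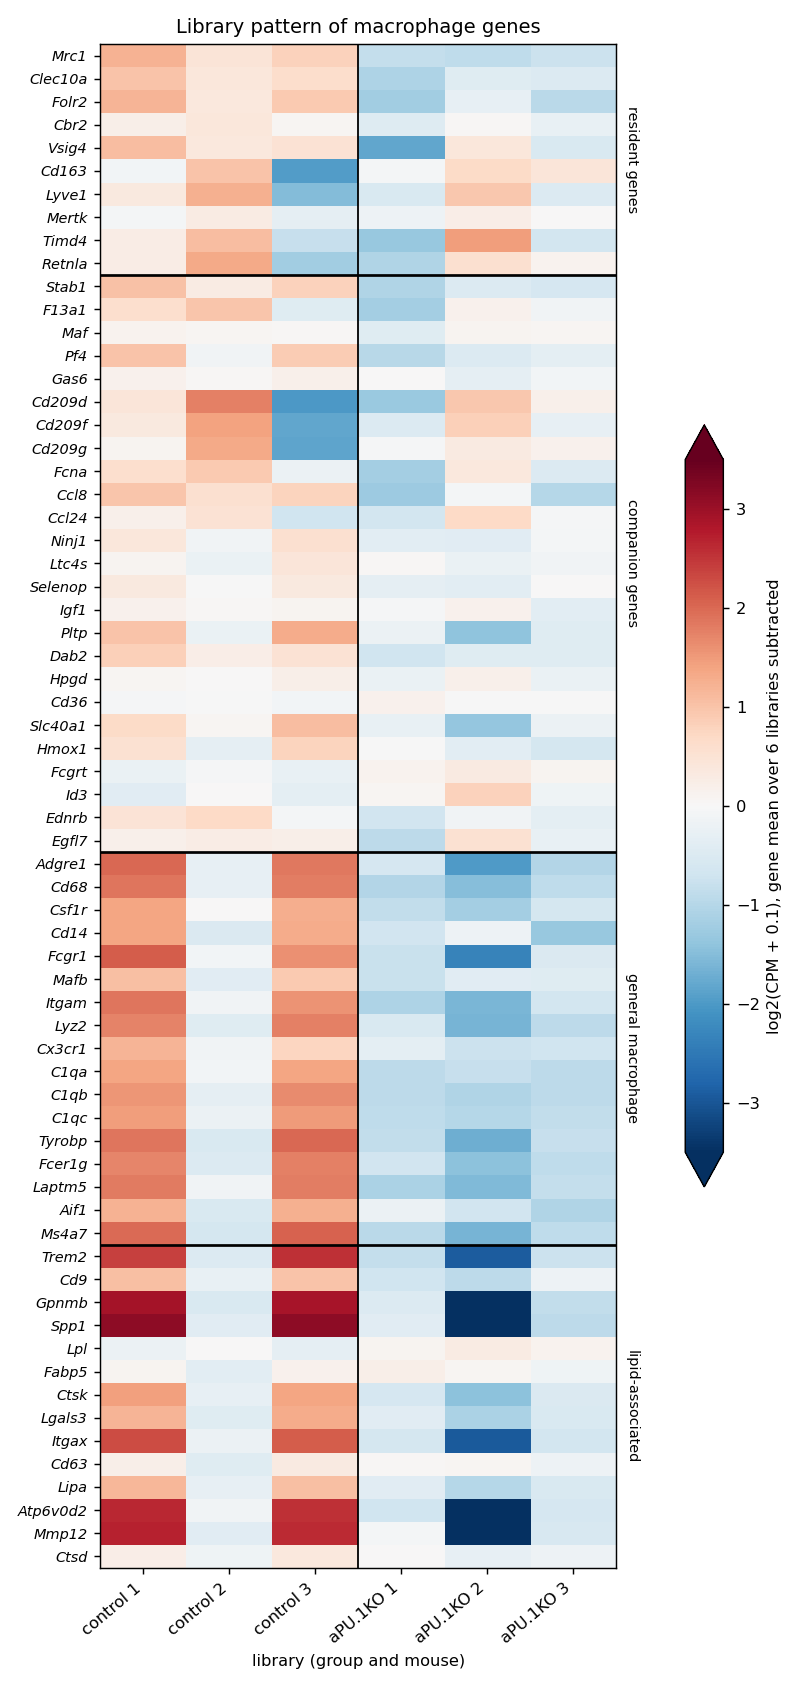
Log2(CPM + 0.1) of each gene with its mean over the 6 libraries subtracted (red above, blue below, colours end at 3.5 in either direction), for the resident genes, their companions, general macrophage genes and lipid-associated macrophage genes (rows) in the 6 libraries (columns). Control 2 is pale in the lower 2 blocks and red for Cd163, Lyve1, Timd4, Retnla and the Cd209 genes, where control 3 is blue.

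Genes of the heme and iron pathway that CD163 feeds were lower in 12 of 13 cases, all tested, with a median log2 fold change of -0.58. edgeR called 0 at an adjusted p under 0.05, with 6 lower and 0 higher genes at an unadjusted p under 0.05, and DESeq2 called 5 lower. Slc11a1, a metal transporter of the macrophage phagosome, averaged 40.1 CPM in control mice and 7.96 CPM with the knockout (log2 fold change -2.34, standard error 0.51, edgeR adjusted p = 0.0783). Slc40a1, the iron exporter ferroportin, was at 13.2 to 26.7 CPM in control mice and 4.88 to 11.0 CPM with the knockout. Hmox1, heme oxygenase 1, overlapped between the groups, at 41.6 to 87.5 and 33.3 to 50.6 CPM. All 13 genes had their lowest control level in mouse 2, the control mouse with the most Cd163.

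Markers of other cell types also moved with the groups or with single libraries, and their part in the values above was not tested. Mesothelial genes, of which 6 of 8 were tested and 6 were lower with no edgeR or DESeq2 call and none at an unadjusted p under 0.05, had a summed level of 10.5, 18.5 and 5.08 CPM in control mice 1, 2 and 3 and 6.76 to 9.09 CPM in aPU.1KO mice. Among the control mice the sum was highest in mouse 2 and lowest in mouse 3, the order seen in Cd163, and this order was not particular to mesothelium. Sums in control mice 1, 2 and 3 were 764, 871 and 602 CPM for blood endothelial, 47.8, 63.9 and 40.8 CPM for hepatocyte and 614, 766 and 520.1 CPM for mural cell genes. Blood endothelial genes were lower in 9 of 9, with 365 to 774 CPM in sum with the knockout, and edgeR called 0 of them at an adjusted p under 0.05 (2 lower at an unadjusted p under 0.05, 1 by DESeq2). Hepatocyte genes were lower in 8 of 8 tested, with a median log2 fold change of -3.61 and 18.7 to 24.4 CPM in sum with the knockout. Of these 8 edgeR called 3 after adjustment, all 8 had an unadjusted p under 0.05, and DESeq2 called all 8. Vsig4, Timd4 and Cd163 are also genes of Kupffer cells, the macrophages of liver. Clec4f, another gene of Kupffer cells, was looked up after these values were seen. It had 1 count in control library 1 and 0 in the other 5 libraries. Clec4f is 1 gene, and the part of Kupffer cell RNA in the values of the members was not tested.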

How the data were processed

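The authors quantified reads with Salmon, summed transcript estimates to genes and deposited estimated counts, which are whole numbers for 35122 Ensembl genes. The submitters' processing notes also name FastQC and GRCm38, and the Salmon version and strandedness are not given in the sources used here. Symbols (35031 matched) and coordinates came from GENCODE M21, and promoter windows from RefSeq. Groups come from the genotype labels. No pair within a group was a duplicate (chi-square per degree of freedom 20.4 or more).

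The groups were tested by edgeR 4.0.16 under R 4.3.3, using glmQLFit and glmQLFTest after TMM scaling and filterByExpr at its defaults, with Benjamini-Hochberg adjustment over 13925 genes, 3 against 3 libraries and no covariate. DESeq2 1.42.0 and voom in limma 3.58.1 were alternatives, beside other scalings, filters and dispersion settings, a thinned control library 1, the mean of the general macrophage genes as a covariate, and each mouse left out. CPM used TMM-scaled library sizes. Low counts make Timd4 and Vsig4 imprecise. Shared sequence was found with BLAST 2.17.0 (at least 75 bp at 90% identity), and figures were drawn with matplotlib 3.10.9. The steps were tested on simulated data.

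Named are the members, Spi1, and up to 3 genes of lowest p in each list with a mean log2 CPM of at least 0. Ligands and relatives of members (Hp, C3, Gas6, Pros1, Retnlb, Retnlg, Folr1, Lep, Mgl2, Prox1, Mmrn1, Reln, Ccl21a, Itga2b, Hmox1, Slc40a1, Maf, Adgre1, Gpnmb, F13a1, Fcna, the Cd209 genes and Clec4f) were added after values were seen. Lpl, Ctsd and Cd36 were added for their high levels after values were seen. The members and lists were chosen with earlier results of these data known.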

Additional observations from a re-analysis of the deposited data

How the results depend on the processing

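The count of 1 resident gene lower at an adjusted p under 0.05 was 3 with no filter and 3 by DESeq2 (Mrc1, Clec10a and Folr2 each time), and 0 with at least 10 counts in every library or with the macrophage list mean as a covariate. With each mouse left out it was 3 without control mouse 2 and 0 without any other. No gene was called higher under any alternative, and 3 to 5 were lower in every aPU.1KO mouse. The median log2 fold change over the tested members was -1.08 with the covariate, -0.87 to -0.22 with each mouse left out. For Spi1 DESeq2 gave -2.75 with an adjusted p of 0.000115, leaving out each mouse gave -3.17 to -2.39, and the covariate gave -0.36 (adjusted p = 0.955). Because the covariate itself separated the groups, its fit cannot tell the loss of Spi1 from a difference in macrophage RNA. Signs turned for Cd163 with the covariate (-1.23) and without control mouse 3 (-0.18), for Mertk with total counts (-0.063), the covariate (-0.45) and without control mouse 3 (-0.076) or aPU.1KO mouse 2 (-0.059), and without control mouse 2 for Lyve1 (0.41) and Retnla (0.29). The cause was not tested. Leaving out each mouse gave -0.18 to 1.08 for Cd163, -0.94 to 0.41 for Lyve1, -0.076 to 0.22 for Mertk and -0.86 to 0.29 for Retnla, and the covariate gave -1.91 for Lyve1, -1.999 for Retnla and -0.76 for Cbr2. Mrc1, Clec10a, Folr2 and Cbr2 were lower under all 17 alternatives. The median relative to general macrophage genes was 0.68 to 2.40 over 11 alternatives. Scaling by total counts moved the median of all genes from 0.014 to -0.11. Over all genes, 33 were called at an adjusted p under 0.05, 1869 by DESeq2, 146 with no filter, 5 with at least 10 counts, 0 with the covariate and 0 to 8 with a mouse left out, except 1193 without control mouse 2. Low counts limit Timd4 and Vsig4, at 47 counts or fewer in every library. No paired analysis was possible because the labels share no number between the groups and do not give litters.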

Other observations

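Genes of monocytes, blood cells that can give rise to macrophages in tissue, were lower in 8 of 8 tested, with a median log2 fold change of -1.28. Fn1 (fibronectin) had -1.69 and Vcan (versican) -1.20, both without overlap between the groups and both also matrix genes of stromal cells, and Ccr2, the receptor that brings monocytes into tissue, averaged 19.3 CPM in control mice and 6.83 CPM with the knockout. Of these 8 edgeR called 0 after adjustment, 5 had an unadjusted p under 0.05, and DESeq2 called 4. Dendritic cell genes were tested for 5 of 8, with 4 lower and 1 higher, 0 edgeR calls, 1 at an unadjusted p under 0.05 and 1 by DESeq2. Of 10 adipocyte genes 9 were higher and 1 lower, with 0 edgeR calls, 8 higher and 1 lower (Lep, leptin, log2 fold change -0.77) at an unadjusted p under 0.05, and 8 higher by DESeq2.

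Of the remaining lists, fibroblast and progenitor genes were lower in 9 of 9 (0 by edgeR, 5 at an unadjusted p under 0.05, 5 by DESeq2), with log2 fold changes of -1.55 for Pdgfra and -2.21 for Lum, which had the lowest p-values of the list. Mural cell genes were lower in 7 of 7 (1 by edgeR, 5 at an unadjusted p under 0.05, 4 by DESeq2), and Pdgfrb, a receptor of pericytes, fell by 0.95 on the log2 scale (standard error 0.12, adjusted p = 0.0491 by edgeR). Neutrophil genes were lower in 3 of 4 tested (0 by edgeR, 2 at an unadjusted p under 0.05, 1 by DESeq2), lymphocyte genes in 5 of 5 (0 by edgeR, 1 at an unadjusted p under 0.05, 0 by DESeq2) and mast cell genes in 3 of 3 (0 by edgeR, 3 at an unadjusted p under 0.05, 0 by DESeq2). Of 7 genes of the epididymal epithelium 5 had no more than 3 counts in any library.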
